A study of Mus musculus with 16 samples.

Results

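Genes of the proteasome and of its interferon-inducible form were followed in lungs of adult mice whose mothers had breathed filtered air or second-hand smoke during pregnancy. They were chosen by symbol: a gene belonged to the set if the array annotation named it Psma, Psmb, Psmc, Psmd or Psme followed by a number, and each gene was read from the probe set that carried that symbol alone and had the highest mean over the arrays. Of 18193 genes measured in this way 44 matched, and 42 of them encode proteasome subunits, assembly chaperones or activators. The other matches, Psmc3ip, a meiotic recombination factor, and Psme3ip1 are not subunits of the proteasome and are kept apart. The 42 genes were 7 of the alpha ring, the testis alpha subunit Psma8, 4 beta ring subunits without catalysis, 3 constitutive and 3 interferon-inducible catalytic subunits, the thymus catalytic subunit Psmb11, 6 ATPases and 11 other subunits of the regulatory particle, 3 chaperones that assemble its base, and 3 activators.

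The proteasome is the main protease of the cytosol and nucleus and degrades proteins that carry ubiquitin chains. Its core is a barrel of alpha and beta rings, in which Psmb5, Psmb6 and Psmb7 cut, and a regulatory particle made of Psmc ATPases and Psmd subunits binds, unfolds and feeds in the substrate. Interferon-gamma induces Psmb8, Psmb9 and Psmb10, which replace Psmb5, Psmb6 and Psmb7 in newly built cores, and the activator subunits Psme1 and Psme2, and this immunoproteasome trims peptides for presentation on class I molecules. Cells of haematopoietic origin hold it without added interferon, so in lung it is found chiefly in leukocytes.

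The arrays covered 4 groups of 4 Balb/c mice at 23 weeks of age: in each sex, one group carried in dams kept in filtered air and one in dams kept in sidestream smoke, the study's stand-in for second-hand smoke (SHS). Smoke was given at 10 mg/m3 of suspended particles, 5 hours a day and 7 days a week. All 16 mice, the air groups included, received ovalbumin as adults, with injections at 19 and 21 weeks and aerosol in weeks 22 and 23, so every value below is from an ovalbumin-challenged lung and no unchallenged lung was analysed here. Total RNA of the left lung was hybridized to 1 array per mouse. The labels call the samples biological replicates but name no dams or litters, so the p-values measure the spread between these mice. SHS was compared with air within each sex, and levels of females were never set against levels of males.

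Promoter sequences are shown for the catalytic subunits that take each other's place, because these pairs carry the comparison of the inducible with the constitutive enzyme. Psmb7, the partner of Psmb10, is missing because no promoter sequence was at hand for it. Each is the 150 bases before the RefSeq start in build GRCm38.p6, written 5′ to 3′ on the gene's strand, with capitals marking letters that match 1 of the 5 motifs searched.
Psmb8: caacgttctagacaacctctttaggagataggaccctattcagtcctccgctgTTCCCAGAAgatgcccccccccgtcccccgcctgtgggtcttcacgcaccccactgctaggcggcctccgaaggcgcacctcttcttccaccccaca
Psmb9: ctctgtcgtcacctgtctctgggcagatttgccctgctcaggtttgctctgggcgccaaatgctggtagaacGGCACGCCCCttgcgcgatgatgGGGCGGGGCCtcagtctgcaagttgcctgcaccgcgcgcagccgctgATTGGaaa
Psmb10: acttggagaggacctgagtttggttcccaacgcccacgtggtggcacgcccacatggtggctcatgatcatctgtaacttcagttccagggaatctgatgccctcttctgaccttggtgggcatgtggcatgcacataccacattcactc
Psmb5: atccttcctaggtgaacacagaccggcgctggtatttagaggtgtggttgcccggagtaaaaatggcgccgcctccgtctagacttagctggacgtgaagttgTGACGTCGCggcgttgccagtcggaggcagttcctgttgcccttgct
Psmb6: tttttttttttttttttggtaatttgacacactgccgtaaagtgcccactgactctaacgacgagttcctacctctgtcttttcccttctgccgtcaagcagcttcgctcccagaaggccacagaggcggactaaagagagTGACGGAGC
The stretches lie at chr17:34198045-34198194 on the plus strand for Psmb8, chr17:34187331-34187480 on the minus strand for Psmb9, chr8:105938393-105938542 on the minus strand for Psmb10, chr14:54617996-54618145 on the minus strand for Psmb5 and chr11:70525207-70525356 on the plus strand for Psmb6. Psmb8 holds TTCCCAGAA, a match to the palindromic pattern TTCNNNGAA, at positions -97 to -89 from the start. Psmb5 holds TGACGTCGC at -47 to -39 and Psmb6 holds TGACGGAGC at -9 to -1, both matches to TGACNNNGC, the core of the antioxidant response element through which NRF1 (gene Nfe2l1) and NRF2 (gene Nfe2l2) act. In Psmb9 the capitals mark the NF-kB pattern, GGG and CC parted by any 5 bases, on both strands and CCAAT on the other strand, and Psmb10 shows none of the 5 patterns in these bases. Psmb9 and Psmb8 stand on either side of Tap1 among the class II genes of the mouse major histocompatibility complex, in the gene order H2-DMb2, H2-DMb1, Psmb9, Tap1, Psmb8, Tap2, H2-Ob.

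The motifs were searched on both strands in the 250 bases before the start, which were at hand for 35 of the 42 genes and for 27025 genes in all. TGACNNNGC was found in 5 of the 35 proteasome promoters (14.3%), those of Psmb5, Psmb6, Psmc6, Psmd12 and Psmd9, against 11.5% of all promoters. The palindromic pattern TTCNNNGAA was found in Psmb8 alone among the 35 (2.86%, against 8.13% of all). The interferon response pattern, GAAA and GAAA parted by any 2 bases, was found in Psmb3, Psmd4 and Psmd9 (8.57%, against 3.46%), CCAAT in 14 (40%, against 37.5%) and the NF-kB pattern in 19 (54.3%, against 48.7%). These are matches of letters and not sites of binding.

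Values are log2 intensities as deposited, where 1 unit is a doubling. A gene was called when its difference in limma, fitted to all probe sets, had a p adjusted by Benjamini-Hochberg under 0.05. The labelled tissue was borne out by 7 markers of alveolar epithelium and club cells, such as Sftpc, whose mean was 14.04 to 14.58 on every array. SHS female array 4 stood apart from its group: it correlated on average at 0.992 with the other SHS females and at 0.995 with the air females. SHS male array 4 did not stand apart by this measure (0.995 with the other SHS males and 0.993 with the air males), but like SHS female 4 it had the lowest cell-division and eosinophil values among the SHS arrays of its sex, given with the markers. Values without these 2 arrays, an alternative chosen after the data were seen, are given beside the results they move. Only SHS arrays are left out there, so for a gene that reads low on them the difference rises by construction. Of the 42 genes 40 had a mean above 7.02, the median over all probe sets; the testis subunit Psma8 (5.30) and the thymus subunit Psmb11 (4.33) lay below it.

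Proteasome genes were modestly higher after in utero SHS, across the core and the regulatory particle and in both sexes. Averaged over the sexes, 23 of the 42 genes rose and none fell, where 9.2% of all genes were called higher and 4.32% lower. The median log2 difference was 0.17 (range 0.03 to 0.32), against 0.00 over all genes, and all 42 differences were above 0, as were 50.8% of those of all genes. A median of 0.17 is small, and 12.1% of all genes had an averaged difference at least as large. For 24 of the 42 genes all 8 SHS arrays lay above the air mean of their sex (10.8% of all genes), and 20 of these 24 were among the 23 called. Leaving out each array in turn gave between 19 and 27 calls, and leaving out both SHS arrays numbered 4 gave 29. Over all probe sets 2997 were called higher on average with all arrays and 4211 without both arrays numbered 4. With each gene read as the mean of its probe sets 20 were called: 7 calls were lost (Psma5, Psmc1, Psmc2, Psmd4, Psmd7, Psmd11 and Psmd13) and 4 gained (Psma4, Psmb3, Psmc4 and Psmd6).

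Within a sex the median difference was the same as on average, and fewer genes were called. In females 6 genes rose and none fell (background 3.29% higher and 0.676% lower), with a median of 0.17 and 42 of 42 differences above 0 (50.1% of all genes). In males 5 rose and none fell (background 4.17% and 2.47%), with a median of 0.17 and 39 of 42 above 0 (52.4%). The SHS arrays lay wholly above the air arrays in 20 of the 42 genes in females (7.74% of all genes) and in 20 in males (10.5%), with 14 genes doing so in both (3.65%). The female calls were Psmd12, Psmb6, Psma6, Psmd2, Psmd14 and Psmb10 and the male calls Psma6, Psmb4, Psmd3, Psmb5 and Psmb10, so Psma6 and Psmb10 were called in both. With quantile normalization Psmd12 was the only female call left. The female count was 0 without air female 3 or SHS female 1, with 23 and 21 genes then at an unadjusted p under 0.05, and 1 without air female 2 or SHS female 3. It was 2 without air female 4, SHS female 2 or SHS male 1, 2 or 3, 3 without air female 1 or air male 1, and 15 without SHS female 4. The male count was 1 without air male 1, SHS male 1 or SHS male 3, 2 without air male 3, air male 4 or SHS male 2, 3 without air female 2, air female 4 or SHS female 1, 8 without air female 1 or SHS female 2, and 10 without SHS female 4. Without both SHS arrays numbered 4, 15 genes were called in females and 12 in males. Calls over all 45037 probe sets moved as well. In females 1061 were higher with all arrays, 583 without air female 3, 2430 without SHS female 4 and 2632 without both arrays numbered 4. In males 1382 were higher with all arrays and 1868 without both arrays numbered 4. No gene was called in the test of the difference between the female and the male effect in limma, where 0 of the 42 had an unadjusted p under 0.05 and 0 of all 45037 probe sets were called.

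**Figure D1:**
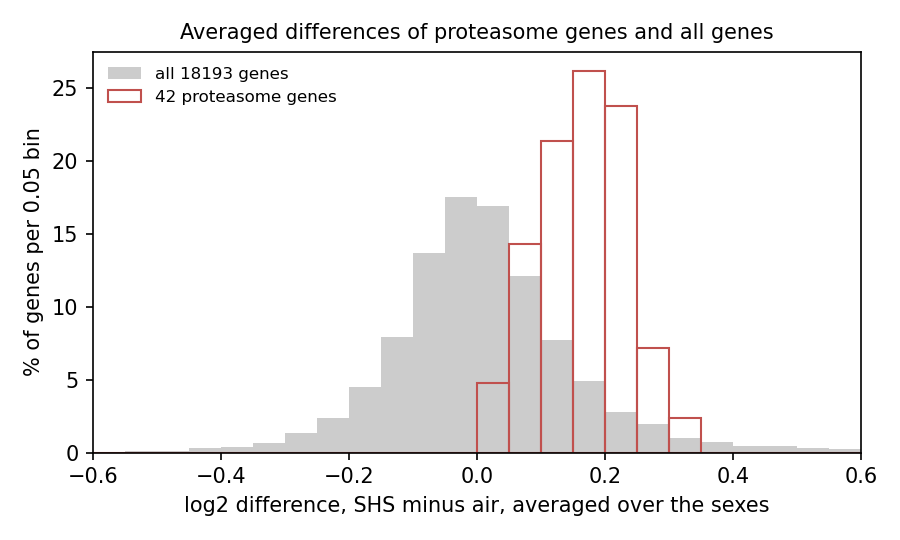
Share of genes (vertical axis, percent) by averaged log2 difference, SHS minus air (horizontal axis), for the 42 proteasome genes and for all 18193 genes. The proteasome genes lie wholly above 0, between 0.03 and 0.32, while all genes centre on 0; 1.43% of all genes and 0 proteasome genes fall outside the plotted range.

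The constitutive catalytic subunits rose together, and all 3 were called in the averaged effect. Psmb5 carries the chymotrypsin-like site of the standard core. Its log2 intensity was 11.19, 11.20, 10.98 and 11.19 in air females and 11.44, 11.58, 11.41 and 11.17 in SHS females. In males it was 10.85, 10.96, 10.94 and 10.87 after air and 11.23, 11.22, 11.21 and 11.13 after SHS. The groups overlapped in females, through SHS array 4, and did not overlap in males. The averaged difference was 0.28 ± 0.056 (SE), or 1.21-fold, with an adjusted p of 0.00404. The male call (0.29, adjusted p = 0.0422) was made in 4 of 16 fits that each left out 1 array, with a highest adjusted p of 0.108 without air male 1.

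Psmb6 carries the caspase-like site. It read 11.19, 11.17, 11.14 and 11.21 in air females and 11.51, 11.47, 11.39 and 11.39 in SHS females, with every SHS array above every air array. Male lungs gave 11.07, 11.08, 11.14 and 10.93 after air and 11.26, 11.23, 11.33 and 11.20 after SHS, again without overlap. Its averaged difference was 0.23 ± 0.044 (adjusted p = 0.0026), and the female difference of 0.26 ± 0.062 was called as well (adjusted p = 0.0303). That female call was made in 10 of 16 fits that each left out 1 array, with a highest adjusted p of 0.108 without SHS female 1.

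Psmb7 carries the trypsin-like site. Air females read 11.30, 11.49, 11.46 and 11.55 and SHS females 11.85, 11.82, 11.50 and 11.71, which overlap through SHS array 3. Air males read 9.13, 8.92, 9.07 and 9.08 and SHS males 9.41, 9.34, 9.39 and 9.20, which do not overlap. The averaged difference was 0.28 ± 0.060 (adjusted p = 0.00591), and neither sex was called on its own (adjusted p = 0.103 in females and 0.0577 in males).

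Among the interferon-inducible members, the catalytic subunits Psmb8 and Psmb10 rose in the averaged effect, and Psmb9 and Psme1 were not called. Their median averaged difference was 0.21, against 0.17 for the 38 other proteasome genes. Psmb8 takes the place of Psmb5. It read 11.48, 11.69, 11.47 and 11.58 in air females and 11.96, 12.05, 11.93 and 11.65 in SHS females. Its male values were 11.44, 11.59, 11.33 and 11.21 after air and 11.79, 11.75, 11.87 and 11.37 after SHS. In each sex 3 SHS arrays lay above all air arrays and SHS array 4 lay among them. The averaged difference of 0.32 ± 0.079, or 1.25-fold, was the largest of the 42 (adjusted p = 0.0129), and was 0.42 (adjusted p = 0.000237) without both SHS arrays numbered 4. Within a sex Psmb8 was not called with all arrays (0.34, adjusted p = 0.116 in females and 0.31, 0.126 in males). Without both arrays numbered 4 it was called in each (0.42, adjusted p = 0.00632 and 0.41, 0.00957). Array 4 read lowest of the SHS arrays in each sex, so leaving it out must raise the difference and gives no support for a call. A dim second probe set (mean 6.15) was called on average (0.39, adjusted p = 0.00289) and in males (0.40, 0.0376), and not in females (0.38, 0.0689).

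Psmb10, which takes the place of Psmb7, had the most even response of the inducible genes. Air females read 10.81, 10.86, 10.84 and 10.96 and SHS females 11.13, 11.21, 11.09 and 11.08. Among males the values were 10.78, 10.89, 10.74 and 10.68 after air and 11.03, 10.96, 11.10 and 10.93 after SHS. No SHS array, those numbered 4 included, fell to an air value in either sex. It rose by 0.26 ± 0.066 in females (adjusted p = 0.0433), by 0.24 ± 0.066 in males (adjusted p = 0.0462) and by 0.25 ± 0.047 on average (adjusted p = 0.00233). The calls within a sex were near the threshold: of 16 fits that each left out 1 array, 4 called the female and 5 the male difference, with a highest adjusted p of 0.128 without SHS female 2 and of 0.149 without SHS male 3. All 16 called the averaged one.

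Psmb9, which takes the place of Psmb6, differed less evenly. It read 10.75, 10.61, 10.50 and 10.60 in air females and 10.90, 11.02, 10.97 and 10.62 in SHS females. Male values were 10.74, 10.84, 10.64 and 10.64 after air and 10.92, 10.77, 10.95 and 10.61 after SHS. The groups overlapped in both sexes, with SHS array 4 within or below the air arrays. The averaged difference was 0.18 ± 0.067 and was not called (adjusted p = 0.1). Without both arrays numbered 4 it was 0.26 and was called (adjusted p = 0.00476).

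Psme1 is the alpha subunit of the activator ring that opens the core. It read 12.07, 11.93, 11.66 and 11.85 in air females and 11.86, 11.92, 12.08 and 11.86 in SHS females, so these groups overlapped throughout. In males it read 11.65, 11.69, 11.53 and 11.67 after air and 11.88, 11.89, 11.97 and 11.81 after SHS, with no overlap. The difference was 0.05 ± 0.082 in females (adjusted p = 0.82) and 0.26 ± 0.082 in males (adjusted p = 0.0807), and the female effect minus the male effect, -0.20 ± 0.12, was not called (adjusted p = 0.68). The averaged difference of 0.15 ± 0.058 was not called either (adjusted p = 0.105).

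Its partner Psme2 had no probe set of its own. The one probe set for it is annotated to Psme2 and to Psme2b, a near-identical retrocopy, and the signal cannot be divided between them. It read 12.01, 12.08, 11.95 and 11.92 in air females and 12.21, 12.25, 12.19 and 12.09 in SHS females. In males it gave 11.75, 11.78, 11.72 and 11.63 after air and 11.95, 11.89, 12.02 and 11.83 after SHS. The SHS arrays lay above the air arrays in both sexes. The averaged difference was 0.20 ± 0.047 and was called (adjusted p = 0.0097), while the sexes alone were not (0.20, adjusted p = 0.125 in females; 0.20, 0.0832 in males).

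**Figure D2:**
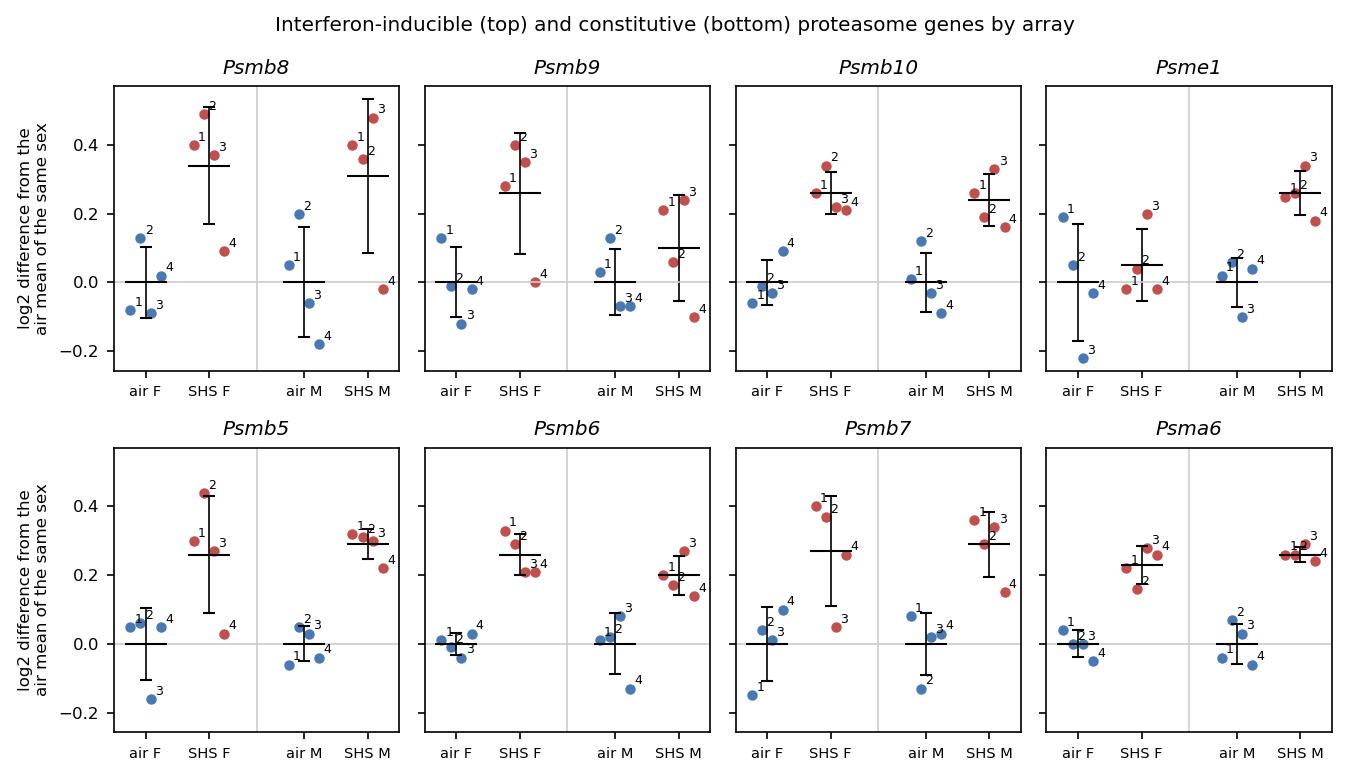
Log2 difference of each array from the air mean of the same sex (vertical axes) for 4 interferon-inducible genes (top) and for Psmb5, Psmb6, Psmb7 and the alpha subunit Psma6 (bottom), by group (F, females; M, males). Points are arrays with their replicate number, and bars give the group mean ± SD (n = 4). SHS array 4 falls to the level of the air arrays for Psmb8 and Psmb9 in both sexes and stays above them for Psmb10, Psmb6 and Psma6.

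Whether the inducible subunit changed more than the one it replaces was tested as the change of their log2 ratio, a comparison chosen after the data were seen. For Psmb8 over Psmb5 the ratio changed by 0.08 in females (SD 0.095 after air and 0.027 after SHS, n = 4 each; two-sided exact permutation p = 0.171, adjusted over 6 tests 0.687) and by 0.02 in males (exact p = 0.943, adjusted 1). For Psmb9 over Psmb6 the change was 0.00 in females (exact p = 1) and -0.10 in males (exact p = 0.229, adjusted 0.687), and for Psmb10 over Psmb7 it was -0.01 in females and -0.05 in males (exact p = 0.8 for each). The smallest p that 70 splits of 4 against 4 allow is 0.0286, and a single one of the 6 tests could reach no less than 0.171 after adjustment. A call of 1 test alone was therefore not possible, and the lack of calls does not show that the subunits of a pair changed alike. The ratio is a change within a pair and gives no relative amount of the subunits, since probe sets differ in brightness.

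In the alpha ring, the gate of the core, 2 of 7 genes rose, Psma6 and Psma5, and the median averaged difference was 0.15. Psma6 had the smallest p of all 42 genes. It read 11.63, 11.59, 11.59 and 11.54 in air females and 11.81, 11.75, 11.87 and 11.85 in SHS females. Male lungs read 11.86, 11.97, 11.93 and 11.84 after air and 12.16, 12.16, 12.19 and 12.14 after SHS. Neither sex showed overlap, and the difference was 0.23 ± 0.057 in females (adjusted p = 0.0356), 0.26 ± 0.057 in males (0.0132) and 0.25 ± 0.041 on average (0.000731). The male call was made in all 16 fits that each left out 1 array and the female call in 8, with a highest adjusted p of 0.11 without air female 4. With the mean of the gene's probe sets the male difference was 0.11 and was not called (adjusted p = 0.291), while the averaged one was 0.17 (0.0142). This probe set is of a type (x_at) that can cross-hybridize, and the next brightest set for the gene gave a smaller averaged difference of 0.14 that was not called (adjusted p = 0.0939).

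Psma5 read 11.21, 11.10, 11.14 and 11.17 in air females and 11.34, 11.43, 11.38 and 11.29 in SHS females. In males its values were 11.59, 11.60, 11.57 and 11.53 after air and 11.73, 11.74, 11.74 and 11.75 after SHS. The groups did not overlap in either sex, and the averaged difference was 0.19 ± 0.040 (adjusted p = 0.00501). With the mean of its probe sets it was 0.12 and was not called (adjusted p = 0.057). The 5 alpha genes that were not called, Psma1, Psma2, Psma3, Psma4 and Psma7, had averaged differences of 0.05 to 0.16. The testis subunit Psma8 differed by 0.10 ± 0.092 (adjusted p = 0.581) at a low level.

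Of the beta subunits without catalysis, which complete the ring around the active sites, Psmb4 and Psmb2 rose. Psmb4 read 12.27, 12.32, 12.26 and 12.38 in air females and 12.46, 12.49, 12.38 and 12.42 in SHS females, where the groups met at a rounded 12.38. Its male values were 11.94, 12.00, 12.01 and 11.98 after air and 12.27, 12.26, 12.30 and 12.15 after SHS, well apart. The male difference of 0.26 ± 0.059 was called (adjusted p = 0.0154) in this fit and in 13 of 16 that left out 1 array, with a highest adjusted p of 0.0607 without SHS male 3. The averaged difference was 0.20 ± 0.042 (adjusted p = 0.00527). A second bright probe set for Psmb4 (mean 11.74) was not called in males (0.10, adjusted p = 0.471) or on average (0.14, 0.0922). With the mean of its probe sets Psmb4 was still called on average (0.17, adjusted p = 0.00482).

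Psmb2 read 10.64, 10.84, 10.75 and 10.83 in air females and 11.02, 11.10, 10.90 and 10.91 in SHS females. In air males it read 10.71, 10.66, 10.68 and 10.60 and in SHS males 10.94, 10.84, 10.96 and 10.85. Every SHS array was above every air array of its sex, and the averaged difference was 0.23 ± 0.048 (adjusted p = 0.00527). Psmb1 (0.13, adjusted p = 0.0888) and Psmb3 (0.09, 0.172) were not called. For Psmb3 the second probe set did give a call (0.22, adjusted p = 0.0035). The thymus subunit Psmb11 differed by 0.10 ± 0.074 (adjusted p = 0.449).

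The non-ATPase subunits of the regulatory particle had the highest share of calls among the larger groups, with 10 of 11 genes higher on average and a median of 0.20. Psmd14, the deubiquitinase that removes ubiquitin chains from the substrate, read 11.39, 11.60, 11.51 and 11.55 in air females and 11.79, 12.01, 11.81 and 11.62 in SHS females. Its male values were 11.63, 11.63, 11.61 and 11.63 after air and 11.91, 11.85, 11.88 and 11.79 after SHS. The SHS arrays were above the air arrays in both sexes, by a narrow gap for SHS female 4. On average the difference was 0.26 ± 0.053 (adjusted p = 0.00369). The female difference of 0.30 was called (adjusted p = 0.0411) with all arrays but in only 2 of 16 fits that each left out 1, with a highest adjusted p of 0.129 without SHS female 2.

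Psmd2, a scaffold that binds ubiquitin-like proteins, read 11.33, 11.48, 11.33 and 11.52 in air females and 11.69, 11.67, 11.65 and 11.69 in SHS females. Air males read 11.06, 10.94, 11.08 and 11.18 and SHS males 11.29, 11.21, 11.29 and 11.32, and neither sex overlapped. The average rise was 0.24 ± 0.047 (adjusted p = 0.00309). Its female difference of 0.26 was called (adjusted p = 0.0397), as it was in 6 of the 16 fits that left out 1 array, with a highest adjusted p of 0.127 without air female 3, and it was 0.14 and not called with the mean of the probe sets (adjusted p = 0.158). Psmd1, the other large scaffold, read 10.65, 10.54, 10.56 and 10.61 in air females and 10.86, 10.91, 10.74 and 10.72 in SHS females. In males it read 10.96, 10.92, 10.96 and 10.84 after air and 11.15, 11.02, 11.08 and 11.09 after SHS. These groups did not overlap, and the averaged difference was 0.19 ± 0.045 (adjusted p = 0.0101).

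Psmd12, a lid subunit, read 9.81, 9.77, 9.71 and 9.81 in air females and 10.13, 10.16, 10.20 and 9.94 in SHS females, without overlap. Males gave 10.20, 10.11, 10.17 and 10.06 after air and 10.33, 10.29, 10.30 and 10.15 after SHS, with SHS array 4 among the air arrays. The female difference of 0.33 ± 0.070 had the smallest adjusted p of the 42 genes in that sex (0.0145) and was called in 13 of the 16 fits that each left out 1 array, with a highest adjusted p of 0.0562 without SHS female 3. The male difference was 0.13 ± 0.070 (adjusted p = 0.308), and the female effect minus the male effect, 0.20 ± 0.099, was not called (adjusted p = 0.626). On average Psmd12 rose by 0.23 ± 0.049 (adjusted p = 0.00562).

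Psmd3, also of the lid, read 9.70, 9.64, 9.54 and 9.66 in air females and 9.84, 9.74, 9.72 and 9.89 in SHS females. In males it read 9.39, 9.44, 9.32 and 9.39 after air and 9.66, 9.64, 9.58 and 9.64 after SHS. The SHS arrays lay above the air arrays in each sex. The male difference of 0.24 ± 0.062 was called (adjusted p = 0.0305), in 9 of the 16 fits with 1 array left out, and the averaged one was 0.20 ± 0.044 (adjusted p = 0.00614). The highest adjusted p of the male difference among those fits was 0.0924, without air male 3.

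Psmd13, a further lid subunit, read 9.56, 9.68, 9.64 and 9.71 in air females and 9.95, 10.03, 9.76 and 9.63 in SHS females, which overlap through SHS array 4. Male values were 9.48, 9.55, 9.55 and 9.54 after air and 9.83, 9.76, 9.81 and 9.71 after SHS, which do not overlap. On average it rose by 0.22 ± 0.055 (adjusted p = 0.0162), but with the mean of the gene's probe sets it was 0.08 and was not called (adjusted p = 0.249). The remaining calls of the group were Psmd4, a ubiquitin receptor (0.13), Psmd7 (0.17), Psmd8 (0.24) and Psmd11 (0.17), and Psmd6 was not called (0.07, adjusted p = 0.362). With the mean of probe sets Psmd4 (0.06, adjusted p = 0.325), Psmd7 (0.01, 0.859) and Psmd11 (0.03, 0.602) were not called and Psmd6 was (0.11, 0.0388).

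Of the 6 ATPases that unfold the substrate, Psmc1, Psmc2, Psmc3 and Psmc5 rose on average (median of the 6, 0.14). With the probe set chosen for each gene, none was called within a sex. Psmc5 read 10.68, 10.56, 10.63 and 10.51 in air females and 10.89, 10.77, 10.68 and 10.73 in SHS females, where the groups met at a rounded 10.68. Its male values were 10.53, 10.55, 10.44 and 10.49 after air and 10.70, 10.70, 10.78 and 10.70 after SHS, well apart. On average Psmc5 rose by 0.19 ± 0.045 (adjusted p = 0.00956).

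Psmc2 read 11.41, 11.42, 11.35 and 11.36 in air females and 11.60, 11.53, 11.46 and 11.53 in SHS females. Air males read 11.55, 11.56, 11.58 and 11.60 and SHS males 11.74, 11.76, 11.73 and 11.82. Neither sex overlapped, and the averaged difference was 0.17 ± 0.040 (adjusted p = 0.0109). With the mean of its probe sets it was 0.11 and was not called (adjusted p = 0.0639). A second bright probe set for Psmc2 (mean 11.51) was called on average (0.20, adjusted p = 0.00421) and in males (0.22, 0.0347). A dim further set (mean 6.22) differed by -0.03 on average (adjusted p = 0.871). Psmc3 (0.15, adjusted p = 0.0263) was a further call, and Psmc1 (0.12, adjusted p = 0.0498) was one at the threshold, not called with the mean of its probe sets (0.07, 0.165). Psmc6 (0.09, adjusted p = 0.209) and Psmc4 (0.06, 0.683) were not called, although a second probe set for Psmc4 was (0.23, adjusted p = 0.0054).

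None of the 3 base chaperones Psmd5, Psmd9 and Psmd10 was called in the averaged effect by limma; 0 had an unadjusted p under 0.05 and the median difference was 0.10. These proteins assist assembly and leave before the particle is finished. The nuclear activator Psme3 (0.21, adjusted p = 0.083) and the large activator Psme4 (0.11, adjusted p = 0.125) were not called either. In all, 19 of the 42 genes were not called on average, and for 4 of them, Psmb3, Psmc4, Psma7 and Psme4, another probe set of the gene was. Over all 88 probe sets of the 42 genes 32 rose and none fell (6.65% and 3.67% of all probe sets), with 59 of the 64 brighter than the median probe set differing upwards. The genes outside the set that share the letters were Psmc3ip (0.26, adjusted p = 0.0198) and Psme3ip1 (0.03, 0.78).

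**Figure D3:**
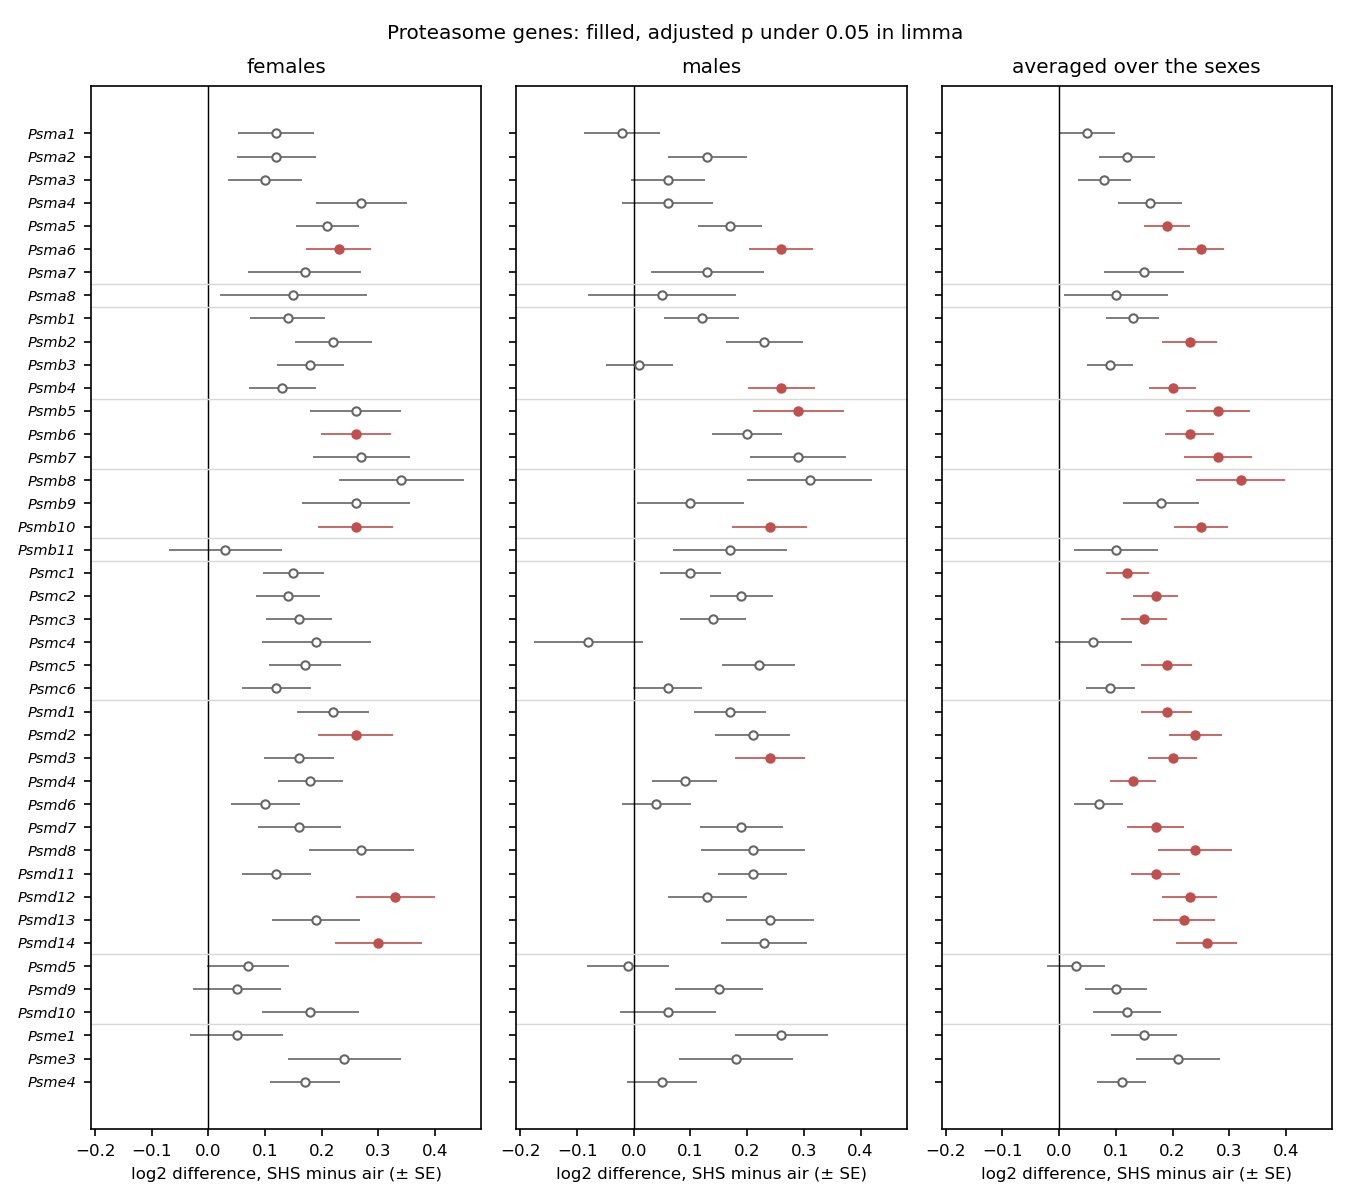
Log2 difference, SHS minus air (horizontal axes), for each of the 42 genes by role, with 1 panel for females, 1 for males and 1 for the average. Bars are ± 1 SE of the model and filled points have an adjusted p under 0.05. All 42 averaged differences lie above 0, 23 of them called, with most of the regulatory particle's non-ATPase subunits among the calls.

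The size of the response varied between the SHS lungs. The median of the 4 inducible genes ranged more widely than that of the 38 others, on the air arrays as well as on the SHS arrays. A median over fewer genes is less steady, so the wider range is not a trait of the response. The median log2 difference of the 42 genes from the air mean of the same sex was 0.21, 0.22, 0.14 and 0.10 in SHS females 1 to 4 and 0.20, 0.15, 0.19 and 0.10 in SHS males 1 to 4. Air arrays had medians between -0.03 and 0.02. The number of the 42 genes above the air mean was 40, 41, 40 and 36 in SHS females and 40, 39, 39 and 32 in SHS males. For the 4 inducible genes the medians were 0.27, 0.37, 0.29 and 0.05 in SHS females and 0.25, 0.22, 0.33 and 0.07 in SHS males, and for the 38 others 0.21, 0.22, 0.13 and 0.11 and 0.18, 0.13, 0.19 and 0.10. On the arrays numbered 4 the inducible median lay just above the air females (-0.10 to 0.04) and within the air males (-0.08 to 0.12), while the median of the others was above all air arrays, which ran from -0.03 to 0.02. After group means were removed, the mean correlation over pairs of genes on the same 16 arrays was 0.54 among the 4 inducible genes, 0.199 among the 38 others, 0.277 between them and 0.007 over all genes. With quantile-normalized values these were 0.469, 0.246, 0.23 and 0.004.

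Other markers moved with these arrays. For each list of related genes below, the share to set beside averaged calls is 9.2% of all genes higher and 4.32% lower. All 6 measured genes of cell division, among them Mki67 and Top2a, rose in each sex, with median differences of 1.26 in females and 1.08 in males, and their mean level was 7.68 to 8.02 in air females, 8.54 to 9.33 in SHS females, 7.85 to 8.19 in air males and 8.78 to 9.31 in SHS males. Array by array, the median of these 6 genes was 1.36, 1.45, 1.50 and 0.71 above the air mean in SHS females and 1.17, 1.18, 1.30 and 0.69 in SHS males, lowest on array 4 in both. Of 6 genes common to leukocytes 1 was called on average (Cd53, 0.27, adjusted p = 0.0406), and their median was 0.24, 0.37, 0.52 and -0.06 above the air mean in SHS females and 0.21, 0.20, 0.13 and -0.21 in SHS males. The mean level of these 6 was 11.96 to 12.16 in air females, 11.98 to 12.52 in SHS females, 11.87 to 12.09 in air males and 11.84 to 12.26 in SHS males, and Ptprc, the gene of the defining leukocyte protein CD45, differed by 0.02 (adjusted p = 0.924). The part of dividing cells and of leukocytes in the proteasome values was not tested, and in bulk lung fewer or more cells of a type and less or more RNA per cell cannot be told apart.

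Markers of single leukocyte types gave fewer calls on average. None of the 6 measured T cell genes and none of the 4 B cell genes was called in limma (2 and 1 at an unadjusted p under 0.05; median 0.12 and 0.11), nor any of 5 eosinophil genes (1 at that p; median -0.02). The eosinophil genes nevertheless varied widely between SHS lungs: their median was 0.30, -0.02, 0.47 and -0.85 from the air mean in SHS females and 0.26, 0.30, 0.02 and -0.74 in SHS males. Epx, the eosinophil peroxidase, read 7.12, 7.09, 7.50 and 5.05 in SHS females and 7.23, 6.96, 6.58 and 5.58 in SHS males, lowest on array 4 in both. Of 4 neutrophil genes Cxcr2 (0.42, adjusted p = 0.0077) and Csf3r (0.39, 0.027) rose, and of 5 macrophage genes Mrc1 rose (0.69, adjusted p = 4.94e-05). On SHS female array 4 the median of the neutrophil genes was 0.97 above the air mean, against 0.33, -0.14 and 0.12 on the other SHS female arrays. Mean levels of the neutrophil genes ran from 9.03 to 9.59 in air females, 9.07 to 10.09 in SHS females, 9.05 to 9.48 in air males and 9.59 to 9.84 in SHS males, and those of the macrophage genes from 9.61 to 9.85, 9.88 to 10.16, 9.63 to 9.81 and 9.79 to 9.92 in the same order. Among 7 lung epithelial genes Scgb3a2, a club cell secretory protein, fell by 0.75 (adjusted p = 0.000345). No array value can be 0 on this scale. Of the 4 thymus markers Psmb11, Rag1 and Dntt had means of 4.33, 3.3 and 5.86, below the median probe set. Cd1d1 had a mean of 8.88, above it, and was called lower on average (-0.22) and in males (-0.30). None of 3 heart muscle genes was called on average. Their mean level ran from 8.57 to 10.31 over the arrays, and their median difference was 0.00 in females and 0.86 in males. The part of these cell types in the proteasome values was likewise not tested.

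**Figure D4:**
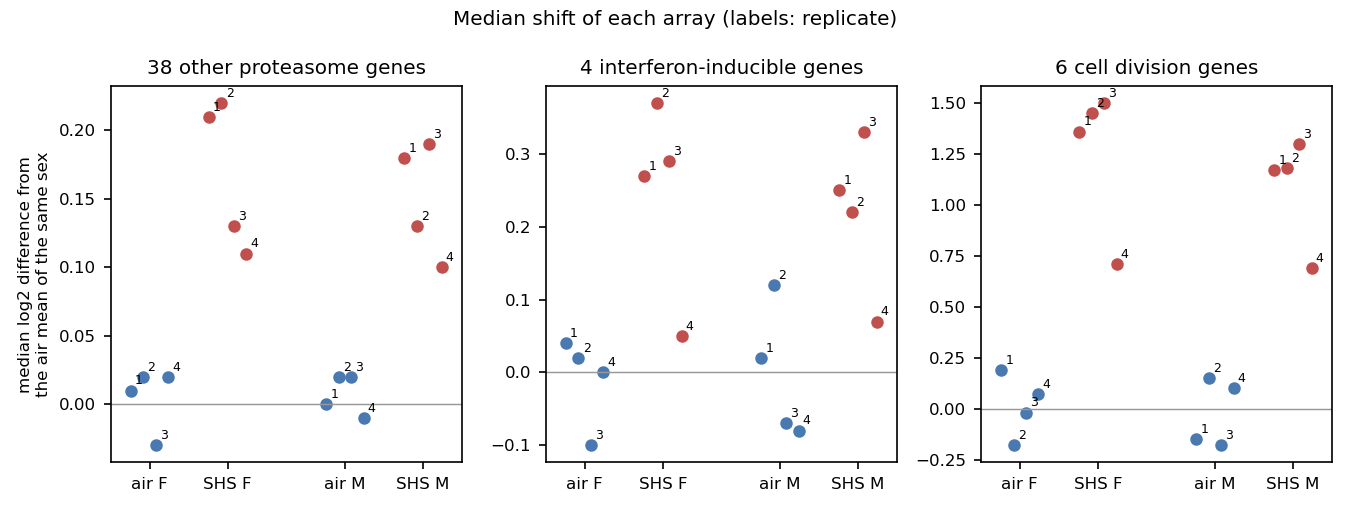
Median log2 difference from the air mean of the same sex (vertical axis) on each of the 16 arrays (horizontal axis), for the 38 other proteasome genes, the 4 interferon-inducible ones and 6 cell-division genes. On SHS array 4 of both sexes the inducible median falls to 0.05 and 0.07 and the cell-division median to 0.71 and 0.69, while the other proteasome genes stay at 0.11 and 0.10.

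Factors that build or accompany the proteasome rose in part. Of 18 measured assembly and accessory genes 7 rose on average (9.2% of all genes) and none fell (4.32%), with a median of 0.10. They were the assembly chaperones Psmg1 (0.26, adjusted p = 0.0164), Psmg4 (0.20, 0.0175) and Pomp (0.15, 0.0357), the proteasome-bound deubiquitinases Uchl5 (0.26, 0.0113) and Usp14 (0.21, 0.0129), the ubiquitin shuttle Rad23b (0.19, 0.0234) and the proteasome-bound thioredoxin Txnl1 (0.17, 0.0253). The largest differences among those not called were those of Psmg3 (0.13, adjusted p = 0.156), Ube3c (0.10, 0.183) and Akirin2 (-0.10, 0.203). Vcp, the p97 ATPase that extracts ubiquitinated proteins and hands them on, rose by 0.24 ± 0.044 on average (adjusted p = 0.0021), and it was the only call among the 4 measured genes of the ubiquitin, E1 and p97 list.

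The listed regulators of proteasome genes were not called higher in RNA. Of 9 measured regulators 1 was called, Nfe2l3, which fell by 0.25 (adjusted p = 0.0405), and the median was -0.03. Nfe2l3 had a mean of 6.78, below the median probe set. Nfe2l1, whose protein restores proteasome genes when degradation fails, differed by 0.14 (adjusted p = 0.151), Nfe2l2 by -0.03 (0.855), Nfya by 0.16 (0.0794) and Foxo4 by -0.19 (0.121). RNA levels of these genes do not measure the activity of their proteins.

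The genes that work with the immunoproteasome in class I presentation gave 3 calls of 12 on average (median 0.16), and these were folding factors of the endoplasmic reticulum: Calr (0.46, adjusted p = 1.13e-05), Pdia3 (0.40, 0.000512) and Canx (0.19, 0.00413). These chaperones load peptides on class I molecules and also fold secreted glycoproteins at large. Tap1 and Tap2, the peptide transporter genes that neighbour Psmb8 and Psmb9, differed by 0.19 (adjusted p = 0.195) and 0.18 (0.0879), and Nlrc5, the class I transactivator, by 0.22 (0.107). H2-K1 (0.05, adjusted p = 0.584), H2-D1 (0.06, 0.484) and B2m (0.00, 0.995), the class I molecule itself, were not called. H2-K1 and H2-D1 are near-identical to other class I genes, and their probe sets can share signal. The mean levels of H2-K1, H2-D1 and B2m were 13.90, 13.75 and 14.45, where the highest value on any array was 15.22. Whether so bright a signal compresses a difference was not tested.

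Of 14 measured interferon-gamma genes 1 was called on average, with a median of 0.07. It was Socs1, a cytokine-induced brake on JAK signalling, at 0.64 ± 0.092 (adjusted p = 0.000209). Ifng itself differed by 0.16 (adjusted p = 0.27), its receptor chains Ifngr2 by 0.21 (0.0621) and Ifngr1 by -0.16 (0.0865), and Jak2 by 0.16 (0.0808). The classical induced genes Irf1 (0.00, adjusted p = 0.983), Gbp2 (0.01, 0.976), Cxcl9 (0.19, 0.603) and Cxcl10 (0.01, 0.983) were not called. The averages of the chemokine genes joined opposite signs: Cxcl9 differed by 0.65 in females (adjusted p = 0.238) and -0.26 in males (0.648), and Cxcl10 by 0.41 (0.532) and -0.39 (0.485), and neither difference between the sexes was called (adjusted p = 0.568 and 0.632). The median of the 14 genes was 0.19 in females and 0.00 in males.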

How the data were processed

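The members were chosen by symbol, and the gene lists by role, with earlier results of these data known. RNA of 16 lungs was measured, 4 per group. The authors deposited log2 values per probe set, already normalized, by a method not given in the sources used here. Limma is named in the submitters' processing notes. An unstated normalization can compress or shift small differences. Values ran from 2.58 to 15.22. They were used as deposited, with 64 control probe sets left out and 45037 tested. Group means were fitted with limma 3.58.1 (R 4.3.3; package data.table, version 1.17.8) on all 16 arrays, with 12 residual and 5.56 prior degrees of freedom. Tests were two-sided, with Benjamini-Hochberg adjustment across the 45037 probe sets of each comparison. Errors of differences are standard errors of the model. The sexes' effects were averaged with equal weight, and their difference was tested. With 4 arrays a group, simulated 1.15-fold changes in 50 probe sets were recovered in 6% of cases in females and in males and in 20% on average, and 1.25-fold changes in 22%, 26% and 68%.

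Values by array are given for the inducible members, for Psmb5, Psmb6 and Psmb7, and for the 12 other members with the smallest p in the averaged effect. In each list of related genes those called are named, with up to 3 others of largest difference; further members of a list are named as background to the pathway, chosen after their values were seen. All 44 matches carried the same symbol in RefSeq (GRCm38.p6), which also supplied the promoters. The plots came from Python 3.11.15 and matplotlib 3.10.9. The alternatives were quantile normalization, median centring, a filter on the dimmest 40% of probe sets, the replicate number as a block, each sex alone, array weights, a trended robust prior, the mean of a gene's probe sets, a threshold of 0.1, and leaving out each array. Added after the data were seen were the omission of both SHS arrays numbered 4 and the exact permutation test of subunit ratios.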

Additional observations from a re-analysis of the deposited data

Results flagged for a closer look

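Among the named members, 76 sets of 4 arrays were searched for an array far from its group, which chance gives in about 1 in 20 sets, and 3 were found. For Psmb5 the air female array 3 read 10.98, against 11.19 to 11.20 on the other air female arrays. For Psmc5 the SHS male array 3 read 10.78, with the other SHS males at 10.70. For Psmd13 the air male array 1 read 9.48, with the others at 9.54 to 9.55. Without air female 3 the female difference of Psmb5 was 0.21, against 0.26 with it, and the averaged difference of Psmb5 was called in all 16 fits that each left out 1 array.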

How the results depend on the processing

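The averaged effect kept its 42 positive differences under quantile normalization, median centring and array weights, with 41 of 42 for the mean of a gene's probe sets, and its count of calls, 23 with the settings of the report, ran from 18 (quantile normalization) to 30 (array weights). With the replicate block it was 21. Leaving out 1 array gave 19 to 27. Median differences ran from 0.13 to 0.19 in females and on average and from 0.13 to 0.17 in males. Over all probe sets 2997 were called higher on average with the report's settings, 2762 with quantile normalization and 4424 with array weights.

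The counts within a sex depended on the setting. In females the 6 calls became 1 with quantile normalization, 10 with the filter on dim probe sets, 0 with the arrays of that sex alone (23 at an unadjusted p under 0.05 in limma), 22 with array weights, 10 with the trended robust prior, 11 with the mean of a gene's probe sets, 11 at an adjusted p under 0.1 and 15 without both SHS arrays numbered 4. In males the 5 calls became 3 with median centring, 16 with the filter, 9 with that sex alone, 17 with array weights, 15 with the trended prior, 11 with the mean of probe sets, 16 at 0.1 and 12 without both arrays numbered 4. Without 1 array the counts ran from 0 to 15 in females and from 1 to 10 in males. The difference between the sexes gave 0 calls throughout. The cause was not tested. Quantile normalization moved the share of higher among all calls from 82% to 70.6% in females and from 64.4% to 56.2% on average. Calls over all probe sets moved with the setting too. In females 1061 were higher with the report's settings, 401 with that sex alone and 2785 with array weights. In males the numbers were 1382, 1515 and 2362 in the same order.

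Correlations of same-numbered deviations ran from -0.08 to 0.27, and the same-numbered array was the best match for replicates 2 and 4 in both sexes. These values cannot settle whether the replicate numbers pair the samples. With the replicate block 6 members were called in females and 4 in males. With the mean of probe sets 4 of the 42 differences turned sign in females, Psma3 (-0.03), Psmd7 (-0.04), Psmd11 (-0.01) and Psmd13 (-0.02), 2 in males, Psmc4 (0.07) and Psmc6 (-0.04), and 1 on average, Psma1 (-0.03). Leaving out 1 array turned 3 genes in females (Psmb11, Psmd9 and Psme1) and 4 in males (Psma1, Psma8, Psmb3 and Psmd5). Array weights turned 1 in each sex, Psmb11 in females and Psma1 in males, and leaving out both arrays numbered 4 turned 2 in males, Psma1 and Psmb3. Among the genes with values by array the turns were those of Psmd13 and of Psme1 in females without air female 3 (-0.02, with a range of -0.02 to 0.12 over the fits that each left out 1 array). Differences of 1.15-fold were seldom recovered in the simulation, in 6% of cases in each sex and 20% on average. That simulation changed 50 probe sets and does not give the recovery for these 42 genes.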
